A study of Rattus norvegicus with 12 samples.

Results

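The transcripts of the serpins and of the inter-alpha-trypsin inhibitor heavy chains (ITIH) were compared in the livers of 6 EtOH and 6 control rats. Members were taken by name. They are the genes of the deposited RPKM table called Serpin with a clade letter from A to I and a number, or Itih with a number. The table lists 51 transcripts of 43 such genes, and 31 of these genes had an RPKM (reads per kilobase of transcript per 1000000 mapped reads) above 0 in at least 1 liver, out of 15270 genes above 0 in the whole table. The other 12 genes were listed at 0 in every liver. Each gene is represented by its transcript with the highest mean RPKM. All animals were females of the inbred alcohol-preferring iP10a strain, which was bred for voluntary drinking. For 23 weeks the EtOH animals had bottles of 10, 20 and 30% ethanol beside their water, while controls had tap water without ethanol. Livers were collected at 38 weeks of age, except for EtOH animal 6 at 39 weeks. The model is 1 inbred strain of 1 sex with intake that each animal chose, and 1 poly(A) library was sequenced per liver.

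Serpins inhibit proteases by a change of shape. The protease cuts an exposed loop of the serpin, the loop folds into the body of the inhibitor, and the enzyme is held in a covalent complex. Hepatocytes secrete most serpins of plasma, among them inhibitors of neutrophil elastase, thrombin, plasmin and the complement protease C1, while clade B serpins stay inside cells. A few family members no longer inhibit proteases and carry hormones (Serpina6, Serpina7) or help collagen to fold (Serpinh1). ITIH heavy chains are also secreted by hepatocytes. They leave the cell joined to bikunin, a small inhibitor encoded by Ambp, and are later transferred to hyaluronan in the matrix.

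The promoters of Serpine2, Serpinh1 and Serpina3m are shown because these 3 members were called higher in the EtOH livers. They come from RefSeq. Each line gives the 250 bases before the transcription start in the GRCr8 build, 5' to 3' on the strand of the gene. All 3 genes lie on the minus strand, Serpine2 at chr9:88637203-88637452, Serpinh1 at chr1:163062977-163063226 and Serpina3m at chr6:128836840-128837089. Capitals mark every match to 6 motifs, each searched on both strands. The promoter box known as TATA box was searched as TATAAA. The element bound by Sp1, called GC box, was searched as GGGCGG. The binding sequence of NF-Y was searched as CCAAT, the STAT element as TTCNNNGAA, the sequence of clock and other helix-loop-helix factors (E-box) as CACGTG, and the heat shock element is given by its name and its match here.
Serpine2: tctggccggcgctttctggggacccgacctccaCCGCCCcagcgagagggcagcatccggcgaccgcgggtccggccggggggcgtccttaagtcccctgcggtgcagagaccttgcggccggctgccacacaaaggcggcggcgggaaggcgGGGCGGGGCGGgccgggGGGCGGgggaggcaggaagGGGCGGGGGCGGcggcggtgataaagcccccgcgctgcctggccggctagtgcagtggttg
Serpinh1: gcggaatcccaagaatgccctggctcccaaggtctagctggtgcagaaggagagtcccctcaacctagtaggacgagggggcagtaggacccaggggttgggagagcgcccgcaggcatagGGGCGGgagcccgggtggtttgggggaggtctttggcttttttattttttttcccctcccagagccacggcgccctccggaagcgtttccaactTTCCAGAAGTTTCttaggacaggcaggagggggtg
Serpina3m: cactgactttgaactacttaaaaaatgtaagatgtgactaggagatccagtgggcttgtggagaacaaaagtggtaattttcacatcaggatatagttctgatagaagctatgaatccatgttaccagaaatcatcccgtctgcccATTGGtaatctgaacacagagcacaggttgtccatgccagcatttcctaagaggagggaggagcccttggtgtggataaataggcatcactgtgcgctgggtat
The Serpine2 stretch is 76.8% G and C and holds 6 GC boxes, 2 of which overlap by 1 base. At least 6 GC boxes stood in 0.825% of all 33469 RefSeq promoters cut to the same length, and at least 1 in 30.5%. The Serpinh1 stretch holds 1 GC box and 1 heat shock element, TTCCAGAAGTTTC, at 35 to 23 bases before the start. The heat shock element was searched as TTC, any 2 bases, GAA, any 2 bases and TTC. That looser pattern was present in 0.663% of all promoters, and among the 24 members with a promoter entry in Serpinh1 only. The Serpina3m stretch holds a single match, a CCAAT on the opposite strand at 104 to 100 bases before the start, a motif found in 34% of all promoters. These matches describe the sequence and say nothing of binding in these livers.

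Recovered reads numbered 2610238 to 4318141 per control liver and 3945593 to 6030028 per EtOH liver, so the EtOH libraries were deeper (two-sided exact permutation test, p = 0.0108). The summed RPKM of all transcripts went the other way, 535264 to 577525 in control livers and 515781 to 532901 in EtOH livers. The tissue label was checked against markers. The 9 hepatocyte markers measured, led by albumin, summed to 85726 to 112635 RPKM in control livers and 94745 to 120143 in EtOH livers, and the 10 stellate cell and fibroblast markers to 23.5 to 33.6 and 35.9 to 50.8. Of the hepatocyte markers 1 was called higher, Cps1 of the urea cycle, a call lost without control animal 2 or EtOH animals 2, 3 or 5 (adjusted p up to 0.0581). In RNA from whole liver, more cells of a type and more RNA per cell cannot be told apart.

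Across the families, 4 of 31 members were called at an adjusted p below 0.05 in limma. The members called higher in the EtOH livers were Serpine2 (protease nexin 1), Serpinh1 (Hsp47) and Serpina3m. The member called lower was Serpina5 (protein C inhibitor), which rested on 14 reads in all. Of all 21718 transcripts tested, 2.42% were called, 1.13% higher and 1.29% lower. Called members therefore were 1 in clade E, 1 in clade H and 2 in clade A, and 0 in clades B, C, D, F, G and I and in the ITIH group. With the voom method on recovered reads, 2 members were called, Serpine2 and Serpina5, against 2.7% of all transcripts. At an unadjusted p below 0.05, 9 members were higher and 1 was lower, where 8.07% and 7.42% of all transcripts were. The median log2 fold change of the 31 members was 0.10, with 23 above 0, beside 0.0002 over all transcripts, of which 10867 were above 0. On RPKM as deposited the median of the members was 0.05, with 19 above 0. Over all transcripts it was -0.02, with 10153 above 0. The median as deposited was 0.10 for the 24 members that averaged 1 RPKM or more, with 17 above 0. It was -0.08 over the 11086 transcripts at that level, of which 4314 were above 0. Of these better measured transcripts 4.47% were called, 2.12% higher, and 1.08% were higher without overlap, beside 3 of the 24 members at that level called, all higher, and 1 without overlap.

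**Figure D1:**
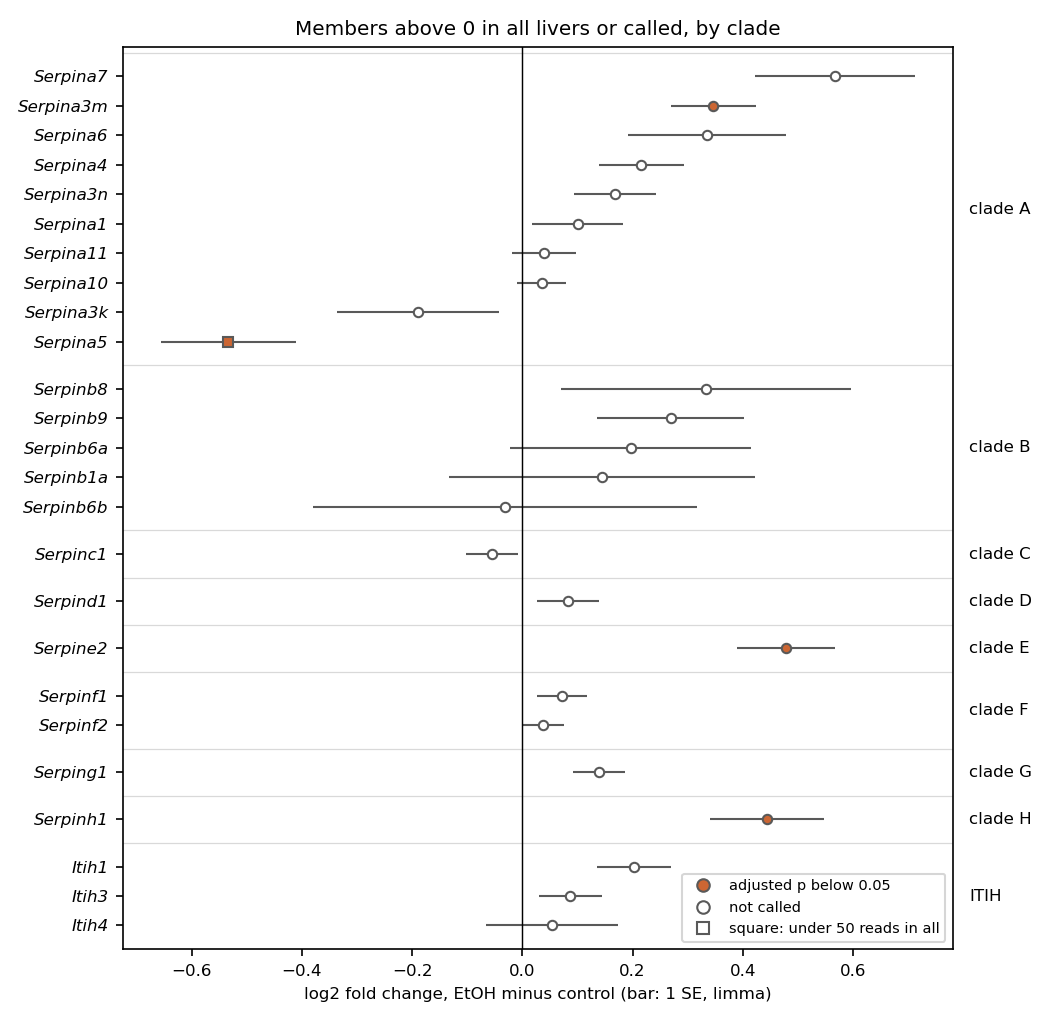
Log2 fold change of EtOH against control livers (x axis, limma on quantile-normalized log2 values, bar 1 standard error) for the 24 members above 0 in all 12 livers and Serpina5, grouped by clade. Filled symbols are the 4 called members, Serpine2, Serpinh1 and Serpina3m to the right of 0 and Serpina5, with under 50 reads in all and drawn as a square, to the left.

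Serpine2 is a serpin of clade E that inhibits thrombin, urokinase and plasmin at cell surfaces. In the control livers its RPKM was 5.82 at the lowest, 7.06 at the median and 7.92 at the highest, and in the EtOH livers 8.23, 9.18 and 9.66. Every EtOH liver lay above every control liver, and EtOH animal 2 was the highest. Mean RPKM was 6.95 ± 0.695 in control and 9.09 ± 0.471 in EtOH livers (SD, n = 6 each). Their ratio was 1.31, and the log2 fold change of EtOH against control (log2FC) was 0.48 with a standard error (SE) of 0.09 (limma adjusted p = 0.0194). On RPKM as deposited the log2 fold change was 0.37. The exact permutation test on RPKM gave the smallest p that 6 against 6 livers allow, 0.00216. Serpine2 was the only member without overlap between the groups, where 0.677% of all transcripts were higher without overlap. The value rests on 319 reads in control and 579 in EtOH livers. The call was lost without EtOH animal 2 (limma adjusted p = 0.0507, 0.0201 to 0.0507 over all 12 livers left out in turn).

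Serpinh1 encodes Hsp47, a chaperone of the endoplasmic reticulum that binds procollagen and does not inhibit proteases. Its RPKM was 6.63, 7.21 and 8.04 at the lowest, median and highest control liver and 7.35, 9.26 and 11.4 in the EtOH livers. Of the EtOH livers 5 lay above every control liver, EtOH animal 1 highest, while EtOH animal 6 lay inside the control range. Mean RPKM rose from 7.21 ± 0.485 to 9.29 ± 1.33 (SD, n = 6 each), a ratio of 1.29 (log2FC 0.44, SE 0.10, limma adjusted p = 0.0456; two-sided exact permutation p = 0.00649). As deposited the log2 fold change was 0.34, and reads numbered 311 and 556. The call lay close to the threshold. It was lost on RPKM as deposited (adjusted p = 0.0817), with median scaling (0.0511) and with voom (0.11), and when control animal 2, 3, 4 or 5 or EtOH animal 1, 2, 3, 4 or 5 was left out (0.0157 to 0.0989 over all 12 livers). Square-root values in limma (0.0595), the pooled test (0.0658) and the fit without the trend (0.0539) lost the call too.

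Among 17 collagen and collagen-folding genes measured beside Serpinh1, 3 were called higher and 0 lower. Over all transcripts these shares were 1.13% and 1.29%, and 0.677% were higher without overlap between the groups. Sparc, a collagen-binding matrix protein, lay at 28.7, 32.4 and 36.4 RPKM at the lowest, median and highest control liver and at 37.3, 40.0 and 49.9 in EtOH livers, without overlap (log2FC 0.49, SE 0.08, limma adjusted p = 0.0142). Col1a2, which encodes a chain of type I collagen, had a mean RPKM of 2.69 ± 0.453 in control and 4.45 ± 0.682 in EtOH livers (SD, n = 6 each, limma adjusted p = 0.0281). Col3a1, the chain of type III collagen, stood at 19.5 ± 1.85 and 23.9 ± 3.01 (SD, n = 6 each, limma adjusted p = 0.0393). In both collagens 5 EtOH livers lay above every control liver. Over the 17 genes the median log2 fold change was 0.21, and 14 were above 0. Sparc kept its call in all 12 fits that left out a liver, and its log2 fold change was 0.33 as deposited. Col1a2 lost it without control animals 2, 4 or 5 or EtOH animals 1 to 5 (adjusted p up to 0.0711), and Col3a1 without control animals 2 to 5 or EtOH animals 1 to 5 (up to 0.0869). Col3a1 also lost it as deposited (adjusted p = 0.104), with median scaling (0.0662), voom (0.0890), no trend (0.0584) and the pooled test (0.0717).

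Of the markers of cells other than hepatocytes, 5 were called, all higher in the EtOH livers, 1 of 10 for stellate cells and fibroblasts, 3 of 9 for Kupffer cells and macrophages and 1 of 5 for endothelial cells. The share called higher was 1.13% over all transcripts and 2.12% over those that averaged 1 RPKM or more. All 10 stellate cell and fibroblast markers measured had a log2 fold change above 0, with a median of 0.48, and the called one was Col1a2, which is also on the collagen list. Their summed RPKM did not overlap between the groups (23.5 to 33.6 in control and 35.9 to 50.8 in EtOH livers). The 9 Kupffer cell and macrophage markers summed to 196 to 302 RPKM in control and 258 to 318 in EtOH livers, with 3 called higher, Clec4f, Cd163 and Vsig4, and a median log2 fold change of 0.42, or 0.27 as deposited. Vsig4 kept its call without any 1 liver, as deposited and with voom. Clec4f lost it as deposited (adjusted p = 0.0898), with voom (0.0742), and without control animal 4 or EtOH animals 1, 3, 4 or 5. Cd163 lost it as deposited (0.0608), with voom (0.0666), without the trend (0.0539) and with the pooled test (0.0752). Its call was also lost without control animals 1 to 5 or EtOH animals 1 to 5. The 5 endothelial markers summed to 28.0 to 36.2 and 33.5 to 46.5 RPKM, with Cdh5 called higher, a call lost as deposited (0.0851), with median scaling (0.0528) and with voom (0.0966) and kept in 1 of 12 fits that left out a liver, that without control animal 6. None of the 4 cholangiocyte, 10 lymphocyte and neutrophil or 2 blood cell markers measured was called in limma, and 0 of these 16 had an unadjusted p below 0.05. The part of these cells in the rise of Serpine2 and Serpinh1 was not tested.

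**Figure D2:**
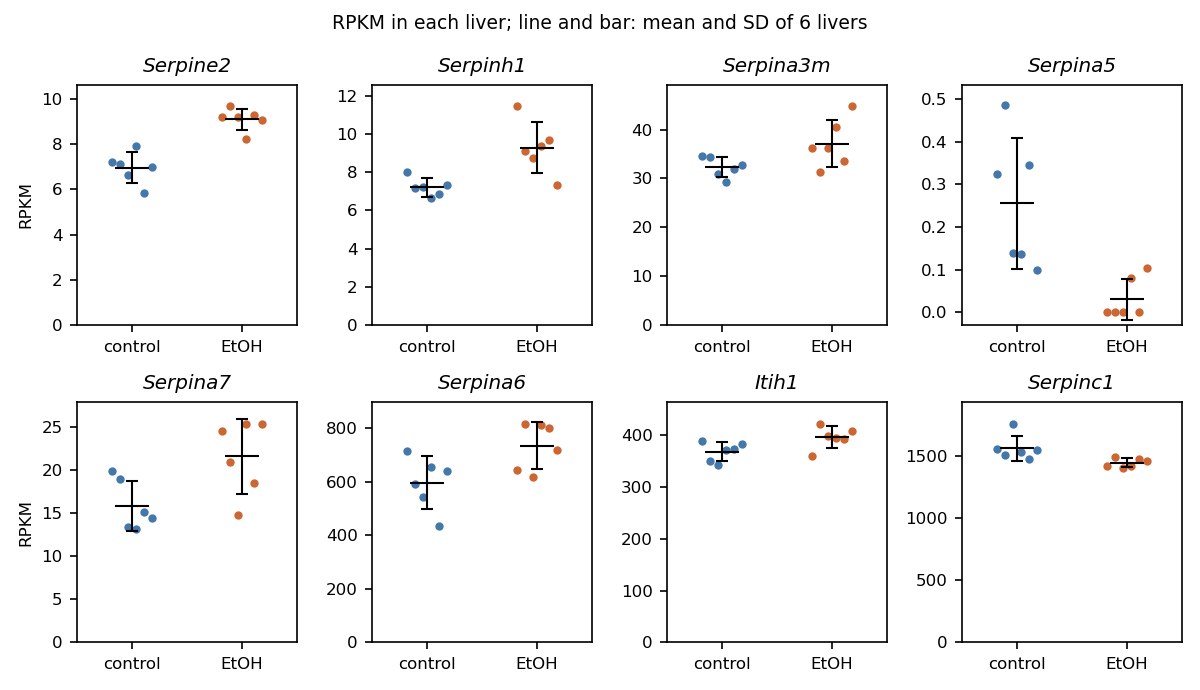
RPKM (y axis, 1 scale per gene) of 8 members in each control and EtOH liver, with the mean and SD of 6 livers. The 6 EtOH livers of Serpine2 sit between 8.23 and 9.66, all above the control livers, whereas the groups of the other members overlap.

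Clade A holds the abundant plasma serpins and had 11 detected members, of which 8 had a log2 fold change above 0. Their median was 0.10. By position in the deposited table (build not given in the sources used here), 12 clade A genes lie in 582 kb of chromosome 6, from 127887686 to 128469309, and 10 of them were detected. Mean levels of the detected genes in this cluster ran from 0.0163 to 4378 RPKM. Serpina1, the inhibitor of neutrophil elastase (alpha-1-antitrypsin), was the most abundant member at 4378 RPKM over the 12 livers, while Serpina1f, between Serpina6 and Serpina1, and Serpina9, between Serpina11 and Serpina12, were listed at 0 in every liver. Serpina12 (vaspin) was above 0 in 1 control liver, which was taken as 1 read. Serpina7 is the detected clade A member outside the cluster, on chromosome X.

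**Figure D3:**
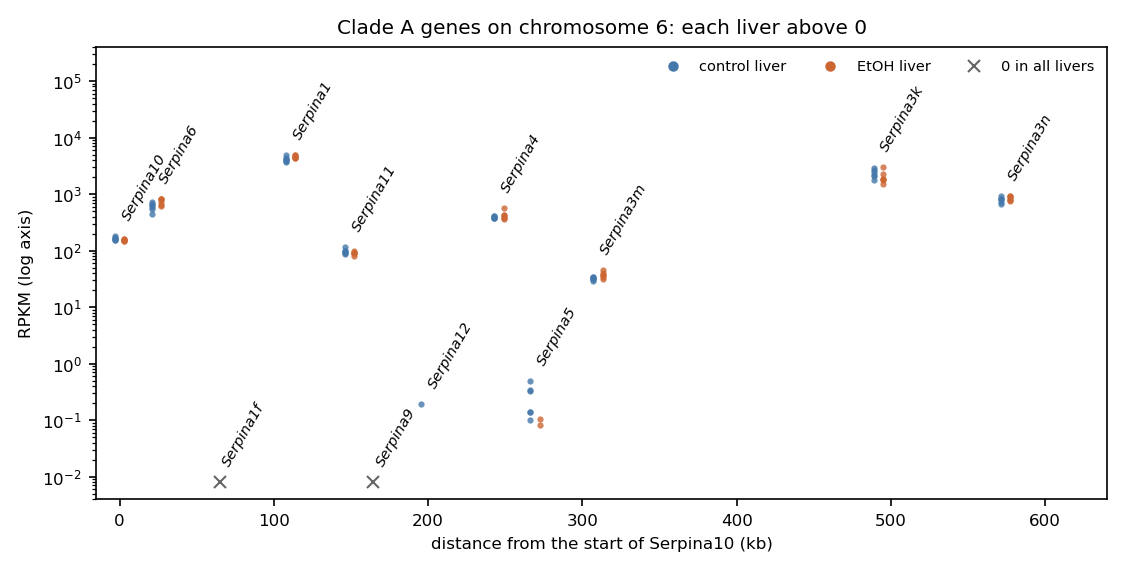
RPKM of each liver (y axis, log scale, livers above 0 only) for the 12 clade A genes of chromosome 6 by distance from the start of Serpina10 (x axis, kb). Serpina1 stands at 4378 RPKM on average, Serpina1f and Serpina9 are at 0 in all livers (crosses), and the blue and orange points of most genes cover the same range.

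The hormone carriers of clade A had higher means in the EtOH livers and were not called. Serpina7 encodes thyroxine-binding globulin. Its RPKM was 13.2, 14.7 and 19.9 at the lowest, median and highest control liver and 14.7, 22.7 and 25.3 in the EtOH livers, with 4 EtOH livers above every control liver. EtOH animal 3 was the low one. Mean RPKM was 15.8 ± 2.88 and 21.5 ± 4.33 (SD, n = 6 each), a ratio of 1.36 (log2FC 0.57, SE 0.15, limma adjusted p = 0.0654). It was called when transcripts were limited to a mean RPKM of at least 0.1 (adjusted p = 0.0459) or 1 (0.0331) and without control animal 1 (0.0399) or EtOH animal 3 (0.0330). As deposited its log2 fold change was 0.43 and its adjusted p 0.142. The adjusted p was 0.165 with voom and 0.107 with the pooled test, and with a liver left out it reached 0.126. Serpina6, corticosteroid-binding globulin, lay at 435, 616 and 714 RPKM in control and 617, 760.2 and 818 in EtOH livers. All 6 EtOH livers were above the control median and 4 above every control liver (log2FC 0.33, SE 0.14, limma adjusted p = 0.282).

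Members of the Serpina3 group are close paralogs with near-identical stretches, and counting could have split their reads, so their values are uncertain. Serpina3m, a liver serpin of this group, lay at 29.4, 32.4 and 34.6 RPKM at the lowest, median and highest control liver and at 31.4, 36.3 and 44.7 in EtOH livers. EtOH animal 6 was the highest, and 4 EtOH livers lay above every control liver. It was called higher (log2FC 0.35, SE 0.08, limma adjusted p = 0.0377), with mean RPKM 32.3 ± 2.02 and 37.1 ± 4.82 (SD, n = 6 each). On RPKM as deposited the log2 fold change was 0.19 and the call was lost (adjusted p = 0.256), as it was with median scaling (0.0653), with voom (0.223), and in 9 of 12 fits that left out a liver (0.0320 to 0.0813), those without control animals 2 to 5 or EtOH animals 1 to 4 or 6. The pooled test (0.0649) and the fit without the trend (0.0627) lost the call too. Serpina3n was at 661, 813 and 931 RPKM in control and 754, 851 and 909 in EtOH livers, inside the control range throughout (log2FC 0.17, SE 0.07, limma adjusted p = 0.304, with a log2 fold change of 0.09 as deposited).

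Serpina3k, listed by RefSeq as Serpina3c, varied most between livers of a group among the members above 100 RPKM. It ranged from 1798 to 2938 RPKM in control livers (median 2292) and from 1514 to 2987 in EtOH livers (median 1851), with coefficients of variation of 17.8% and 25.5%. EtOH animal 3 was the highest of all livers and EtOH animal 5 the lowest (log2FC -0.19, SE 0.15, limma adjusted p = 0.612). LOC299282, a neighbouring gene that RefSeq lists as Serpina3l and that the rule on names does not take, varied in the same livers. It peaked at 899 RPKM in control animal 3 and 851 in EtOH animal 3 and was lowest at 257 in EtOH animal 5 (log2FC -0.25, SE 0.29, limma adjusted p = 0.692). These are also the highest control, highest EtOH and lowest EtOH liver of Serpina3k.

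Serpina5, the protein C inhibitor, lies next to Serpina4 in the cluster and was almost silent. Its RPKM was 0.0998, 0.232 and 0.485 at the lowest, median and highest control liver and 0, 0 and 0.104 in EtOH livers. All 6 control livers and 2 EtOH livers had a read, and 1 EtOH liver lay inside the control range. There were 12 reads in control and 2 in EtOH livers, or 0.591 and 0.0718 per 1000000 reads, a ratio of 0.122 (exact 95% interval 0.0132 to 0.546, counting error only). The limma call (log2FC -0.53 with a pseudocount of 0.5, SE 0.12, adjusted p = 0.0426) was lost in 11 of 12 fits that left out a liver, all but that without control animal 6 (0.0239 to 0.0955), with a pseudocount of 1 (0.0511), on RPKM as deposited (0.0568), with median scaling (0.0693) and with a minimum mean RPKM of 0.1 (0.0628). The call was also lost without the trend (0.0510), and with voom it was kept (0.0429).

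Of the other clade A members none was called. Serpina1 lay at 3735, 4125 and 4861 RPKM in control livers and 4318, 4481 and 4972 in EtOH livers, so that all EtOH livers were above the control median (log2FC 0.10, SE 0.08, limma adjusted p = 0.647). Serpina4 (kallistatin), which inhibits tissue kallikrein, was at 374, 382 and 411 RPKM in control and 359, 409 and 559 in EtOH livers, with EtOH animal 6 far above the rest (log2FC 0.22, SE 0.08, limma adjusted p = 0.182, with a log2 fold change of 0.11 as deposited). For Serpina10, which inhibits activated factor X together with protein Z, and for Serpina11 the sign depended on the normalization. Their log2 fold changes were 0.03 and 0.04 after the quantile step and -0.11 each as deposited, and both were also below 0 with median scaling and voom. Serpina10 ran from 153 to 183 RPKM in control and 145 to 161 in EtOH livers, and Serpina11 from 85.3 to 115 and 79.2 to 98.1.

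The single members of clades C, D and G and the pair of clade F, all plasma proteins, were not called. Serpinc1 (antithrombin), the main inhibitor of thrombin and factor Xa, lay at 1475, 1544 and 1763 RPKM in control and 1406, 1444 and 1497 in EtOH livers. Of the EtOH livers 4 lay below every control liver and control animal 3 stood alone at the top. Mean RPKM was 1565 ± 102 and 1449 ± 37.0 (SD, n = 6 each, two-sided exact permutation p = 0.00649 on RPKM). After the quantile step the log2 fold change was -0.05 (standard error 0.05, limma adjusted p = 0.649). Serpind1 (heparin cofactor II), a second thrombin inhibitor, was the steadiest member, with coefficients of variation of 2.73% in control and 2.17% in EtOH livers, and ran from 442 to 473 and from 435 to 463 RPKM. Its log2 fold change was 0.08 (standard error 0.06, limma adjusted p = 0.536) and -0.02 as deposited.

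Serpinf1 (pigment epithelium-derived factor) and Serpinf2 (alpha-2-antiplasmin, the plasmin inhibitor) lie within 42.8 kb on chromosome 10. Serpinf1 was at 451, 470.4 and 577 RPKM in control and 468, 486 and 515 in EtOH livers, and Serpinf2 at 287, 295 and 339.8 in control and 272, 286 and 313 in EtOH livers. Control animal 3 held the highest value of both, and neither was called (log2 fold changes 0.07 and 0.04, and 0.01 and -0.06 as deposited). Serping1, the C1 inhibitor, which controls the complement proteases C1r and C1s and plasma kallikrein, ran from 272 to 338 and 277 to 323 RPKM with medians of 304 and 318. It was not called (log2FC 0.14, SE 0.05, limma adjusted p = 0.166), and its log2 fold change was 0.03 as deposited and 0.05 with voom.

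**Figure D4:**
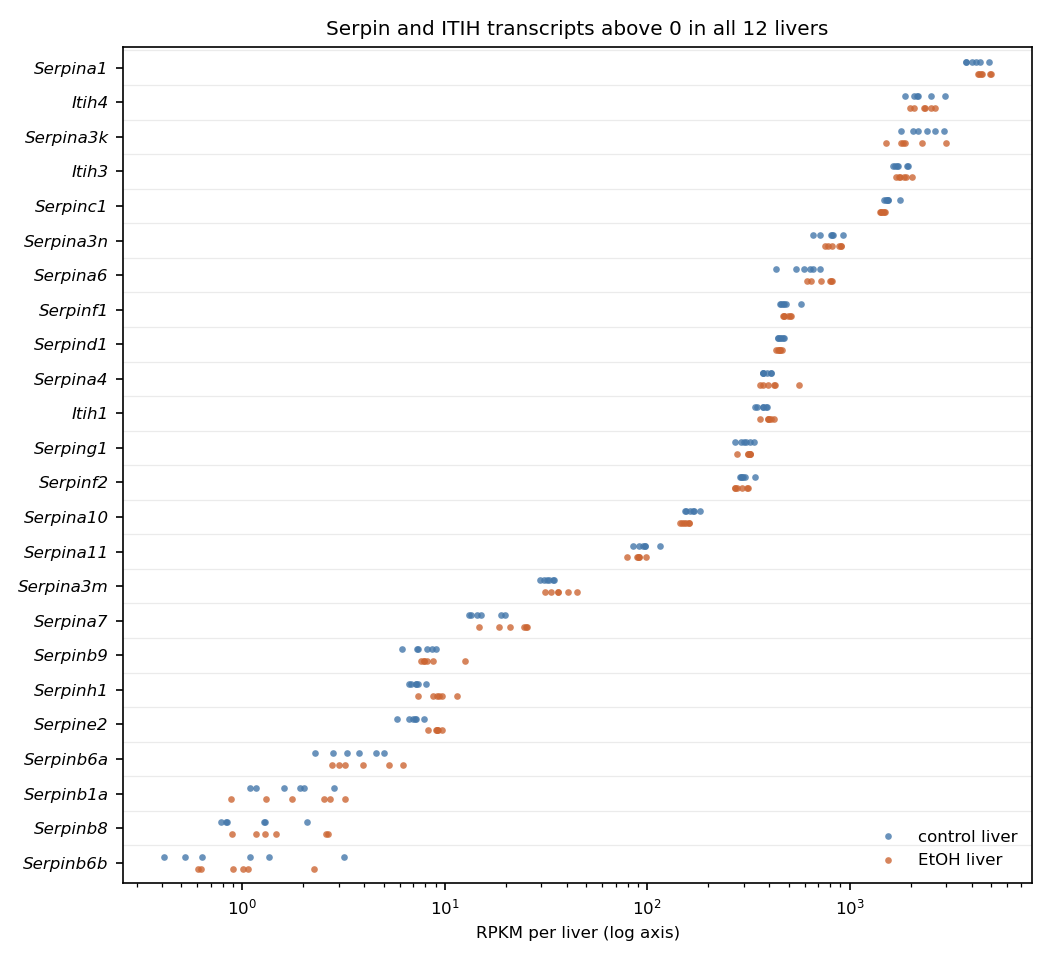
RPKM of each liver (x axis, log scale) for the 24 members above 0 in all 12 livers, ordered by mean RPKM, from Serpina1 at 4378 RPKM downward. The 15 highest members average 93.4 RPKM or more, Serpina3m and Serpina7 follow at 34.7 and 18.7, and the clade B serpins, Serpinh1 and Serpine2 do not exceed 12.6 in any liver.

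Clade B serpins, which act inside cells against granule and lysosomal proteases, were low. Of 16 clade B genes 8 were detected, 5 of them in all 12 livers, and 0 were called, with 0 at an unadjusted p below 0.05. The median log2 fold change was 0.07, with 4 above 0 and 4 below, among them Serpinb6b at -0.03, which was above 0 with median scaling and voom. Serpinb9, the inhibitor of granzyme B, was the most abundant, at 6.12, 7.75 and 9.04 RPKM in control and 7.66, 8.06 and 12.6 in EtOH livers. EtOH animal 1 stood apart at the top and the other EtOH livers lay inside the control range (log2FC 0.27, SE 0.13, limma adjusted p = 0.369, with a log2 fold change of 0.17 as deposited). By position the clade falls into a group of 6 genes on chromosome 17, 4 of them detected with means of 1.14 to 8.29 RPKM, and a group of 10 on chromosome 13, 4 of them detected with means up to 1.43 RPKM. Serpinb1a, Serpinb6a, Serpinb6b and Serpinb8 rested on 36 to 108 reads in control and 46 to 175 in EtOH livers, and at such depth their standard errors were 0.22 to 0.35. Serpinb5, Serpinb7 and Serpinb10 had 1 or 2 reads in any group with a read, by the smallest whole numbers that fit their RPKM. Of the remaining serpins, Serpini1 (neuroserpin) had 6 reads in control and 15 in EtOH livers.

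The rule on names took 3 ITIH genes, Itih1, Itih3 and Itih4, which were abundant, and none was called. No other heavy chain was listed under such a name, so these 3 do not stand for the whole family. These 3 genes lie in 58.6 kb of chromosome 16. Itih1 was at 342, 373 and 389 RPKM at the lowest, median and highest control liver and at 361, 397 and 423 in EtOH livers. Of the EtOH livers 5 lay above every control liver and EtOH animal 1 inside the control range (log2FC 0.20, SE 0.07, limma adjusted p = 0.147, with a log2 fold change of 0.11 as deposited). Itih3 was at 1633, 1721 and 1943 RPKM in control and 1699, 1813 and 2034 in EtOH livers (log2FC 0.09, SE 0.06, limma adjusted p = 0.513, with 0.05 as deposited). Itih4, a heavy chain that carries no link to bikunin and is cleaved by plasma kallikrein, was the most abundant of the 3 at 1879, 2156 and 2947 RPKM in control and 1989, 2337 and 2634 in EtOH livers, so that every EtOH liver lay inside the control range (log2FC 0.05, SE 0.12, limma adjusted p = 0.862, with 0.03 as deposited).

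Further transcripts of the same genes were listed at lower levels. The second Itih3 transcript was at 90.6, 98.4 and 105 RPKM in control and 91.6, 112 and 122.5 in EtOH livers. In this transcript too 5 EtOH livers lay above every control liver (log2FC 0.31, SE 0.07, limma adjusted p = 0.0516, with a log2 fold change of 0.17 as deposited). A second Itih1 transcript averaged 169 ± 17.2 RPKM in control and 162 ± 10.6 in EtOH livers (SD, n = 6 each, limma adjusted p = 0.540). Itih1 had 1 more transcript, which was at 0 in 2 livers of each group and up to 15.0 RPKM in others. The further transcripts of Itih4, Serpina11, Serpinc1 and Serpinf1 averaged 18.5, 1.85, 1.46 and 0.0252 RPKM, and 0 were called (adjusted p 0.649 to 0.744 from limma), with 0 at an unadjusted p below 0.05. Transcripts of a gene share exons, and their values depend on how reads were divided among them.

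Partners of the heavy chains were measured for 9 of 16 genes listed. Hyal1, a lysosomal hyaluronidase that degrades hyaluronan, was called higher and was the only call. It lay at 11.3, 13.5 and 15.5 RPKM at the lowest, median and highest control liver and at 16.9, 18.4 and 24.5 in EtOH livers, so that the groups did not overlap. Mean RPKM was 13.7 ± 1.7 and 19.3 ± 2.86 (SD, n = 6 each), a ratio of 1.42 (log2FC 0.63, SE 0.11, limma adjusted p = 0.0124). The call was kept in all 12 fits that left out a liver, and the log2 fold change was 0.48 as deposited. For comparison, 1.13% of all transcripts were called higher, and 0.677% were higher without overlap between the groups. Ambp, which encodes bikunin, was at 2770.4 ± 188 and 2630.5 ± 120 RPKM (SD, n = 6 each) and was not called (log2FC -0.09, SE 0.05, limma adjusted p = 0.470).

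The proteases that serpins inhibit were measured for 21 of 26 genes listed, and 1 was called higher and 0 lower. Among all transcripts 1.13% were called higher and 1.29% lower. The called gene was F11, coagulation factor XI, at 38.7 ± 3.68 RPKM in control and 45.5 ± 4.66 in EtOH livers (SD, n = 6 each, log2FC 0.39, SE 0.08, limma adjusted p = 0.0316). The call was lost on RPKM as deposited, where its log2 fold change was 0.23, with voom (adjusted p = 0.145), without the trend (0.0543) and with the pooled test (0.0566). It was also lost in 7 of 12 fits without a liver, those without control animals 2, 3 or 4 or EtOH animals 2, 3, 4 or 6 (adjusted p up to 0.0736). Of the 21 genes the most abundant were Plg and F2, and neither was called. F2 (prothrombin) was at 996 ± 31.5 and 969.9 ± 18.8 RPKM, and Plg (plasminogen) at 1021 ± 45.1 and 995 ± 45.2 (SD, n = 6 each), with log2 fold changes of -0.01 and -0.05. Among 6 cofactors and receptors of serpins, 0 were called and 1, Lrp6, had an unadjusted p below 0.05 (log2FC 0.53, SE 0.20, limma adjusted p = 0.197).

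Inhibitors of other families gave 2 calls higher and 1 lower among 24 genes, beside 1.13% and 1.29% of all transcripts. Fetub (fetuin-B) fell from 2064 ± 182 to 1542 ± 93.5 RPKM (SD, n = 6 each), every EtOH liver below every control liver (log2FC -0.38, SE 0.05, limma adjusted p = 0.00385). With median scaling its adjusted p was 0.0534. Lower values without overlap between the groups were seen in 2.43% of all transcripts. Mug1 and Mug2, rodent relatives of alpha-2-macroglobulin that trap proteases of many kinds, were called higher. Mug1 went from 878 ± 102 to 1066 ± 72.7 RPKM and Mug2 from 2.43 ± 0.266 to 4.01 ± 0.662 (SD, n = 6 each, log2 fold changes 0.35 and 0.66, adjusted p = 0.0305 and 0.021 from limma). They share near-identical stretches that counting could split, so the values of both are uncertain. Mug1 lost its call on RPKM as deposited, without the trend (adjusted p = 0.0539) and with the pooled test (0.0503). Its call was also lost in 9 of 12 fits without a liver (adjusted p up to 0.0715), all but those without control animals 1, 3 or 6. Mug2 lost its call without EtOH animal 2 or 3 (up to 0.0558). Agt (angiotensinogen), a non-inhibitory serpin whose name lies outside the rule, was at 211 ± 23.9 and 222 ± 7.20 RPKM and had the smallest p of the 6 renin-angiotensin genes, of which 0 were called (log2FC 0.21, SE 0.06, limma adjusted p = 0.0774). As deposited its log2 fold change was 0.08, and with voom 0.09 (adjusted p = 0.449). It was called with a minimum mean RPKM of 1 (0.0436) and without control animal 6 (0.0490).

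Among 19 regulators known to act on inhibitor genes in the liver, 3 were called higher and 0 lower, beside 1.13% and 1.29% of all transcripts. At an unadjusted limma p below 0.05, 6 were higher and 3 lower, where 8.07% and 7.42% of all transcripts were. Without overlap between the groups, 0.677% of all transcripts were higher. Il1r1, the receptor of interleukin 1, lay at 6.61, 10.8 and 11.6 RPKM at the lowest, median and highest control liver and at 11.7, 16.4 and 24.2 in EtOH livers, without overlap (log2FC 0.82, SE 0.16, limma adjusted p = 0.0246). Nr3c1, the glucocorticoid receptor, had a mean RPKM of 18.8 ± 2.20 in control and 25.2 ± 3.13 in EtOH livers (SD, n = 6 each, log2FC 0.56, SE 0.10, limma adjusted p = 0.0161), and Nr1d1, the clock repressor REV-ERBα, 12.5 ± 6.26 and 31.1 ± 10.9 (SD, n = 6 each, log2FC 1.51, SE 0.33, limma adjusted p = 0.0358). Il1r1 was lost without control animal 2 or EtOH animals 2, 3 or 4 (adjusted p up to 0.0626), and Nr1d1 without control animals 3 to 5 or EtOH animals 2 to 6 (up to 0.0756). Both were also lost with the pooled test (0.0522 and 0.0606).

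The members together took 2.75 to 3.28% of all RPKM in the control livers and 3.03 to 3.27% in the EtOH livers, with medians of 2.90 and 3.08%. Clade A took 1.43 to 1.74% and 1.58 to 1.90%, and the 3 ITIH genes 0.727 to 0.960% and 0.795 to 0.917%. These shares overlapped between the groups. Serpina1 alone took 0.680 to 0.889% in control and 0.812 to 0.933% in EtOH livers.

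**Figure D5:**
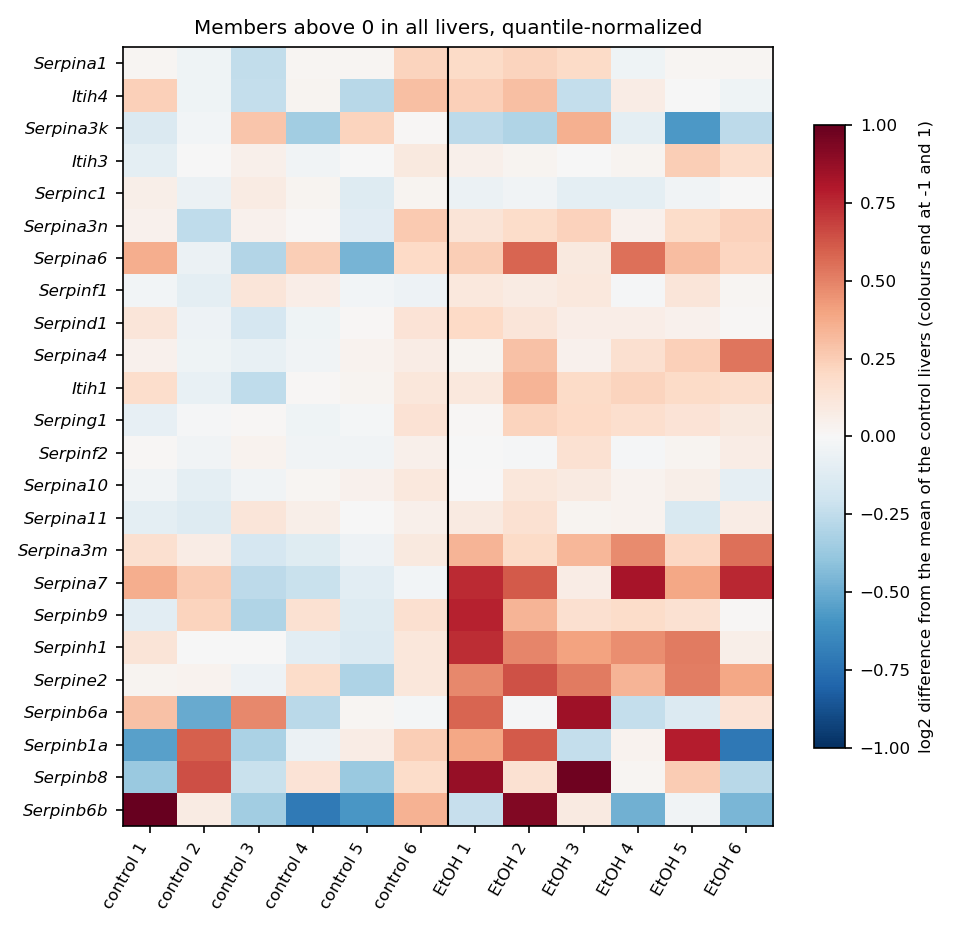
Quantile-normalized log2 value of each liver (columns) minus the mean of the 6 control livers for the 24 members above 0 in all livers (rows, by mean RPKM), with colours that end at -1 and 1. The rows of Serpine2, Serpinh1, Serpina3m, Serpina7, Serpina6, Serpina4, Serpina3n, Serpinb9, Serpind1, Serping1 and Itih1 are above 0 in all 6 EtOH livers. Some are so only faintly, such as Serpinh1 in EtOH animal 6 and Serpina7 in EtOH animal 3. For Serpind1 this depends on the quantile step, as its log2 fold change was -0.02 as deposited. The other clade B rows at the bottom change from liver to liver in both groups.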

How the data were processed

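Poly(A) RNA of 12 livers, 6 control and 6 EtOH, was sequenced as paired 101-base reads from barcoded libraries. Mapping and RPKM calculation were done by the authors in CLCbio Genomics Workbench, and the deposited table holds those RPKM values. The sources used here name no genome build. The fold changes, statistics and p-values of the authors' own comparison in that table were not used. Groups were taken from the labels, which name separate animals.

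The RPKM values of the 21718 transcripts above 0 in at least 1 of the 12 livers, of 34391 listed, were transformed as log2(RPKM + 0.5), quantile-normalized and fitted in limma 3.58.1 (R 4.3.3) with a mean-variance trend. P-values were adjusted by Benjamini-Hochberg over all 21718 transcripts, with a threshold of 0.05. Log2 fold changes are on the log2(RPKM + 0.5) scale and understate the change of low transcripts. After the quantile step those of Serpine2, Serpinh1, Serpina7, Sparc and Hyal1 were larger than on RPKM as deposited. Single values were also compared on RPKM by a two-sided exact permutation test in Python 3.11.15 with numpy 2.4.6, pandas 2.3.3 and scipy 1.17.1. Figures were drawn with matplotlib 3.10.9. The fit was tested on simulated data, with 50 transcripts of at least 1 RPKM changed at each fold. It called 4% of those changed 1.3-fold, 24% at 1.5-fold, 74% at 2-fold and 94% at 4-fold. Of 20660 unchanged transcripts it called 5. Most changes of 1.3-fold or 1.5-fold were therefore missed, and a member not called may still have changed by that much.

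RPKM steps gave whole reads, within 0.01 of a read, for 21718 of 21718 transcripts, and limma voom was run on these. Depth ran from 2610238 to 6030028 reads per liver. A count of 0 allows up to 3 reads, or 0.148 per 1000000 reads in control and 0.108 in EtOH livers. Intervals and these limits cover counting error only.

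Alternatives were a pseudocount of 0.1 or 1, no normalization, median scaling, square-root values with limma or with an unmoderated pooled test, no trend, limits of 0.1 or 1 on mean RPKM, a replicate block, voom, all transcripts of a gene and each liver left out. Named are the called members, the 20 with the highest mean RPKM, the 5 with the largest change among those of at least 1 RPKM, members without overlap, their further transcripts, and in each accompanying list the called genes or else the gene with the smallest p. LOC299282, Ambp, F2, Plg and the low serpins named beside counts lie outside this rule and were chosen after their values were seen. Members and lists were chosen with earlier results of these data known. Of the 43 gene names, 41 matched RefSeq by symbol and 2 by an older symbol. The values of 1 low member are not reported here.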

Additional observations from a re-analysis of the deposited data

Results flagged for a closer look

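In 12 of 59 groups of 6 livers, the highest or lowest liver stood farther from its nearest neighbour than Dixon's 95% critical value allows. For independent, normally distributed values chance would flag about 1 in 20 groups. A group with a read in only 1 liver is always flagged, and genes measured in the same livers are not independent. The number of flags therefore cannot be read as an excess over chance. Control animal 3 stood above the other control livers for 3 plasma serpins. Its RPKM was 1763 for Serpinc1 (next 1555), 577 for Serpinf1 (next 487) and 339.8 for Serpinf2 (next 304). The same liver had the highest summed RPKM of all 12 livers.

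EtOH animal 6, the animal aged 39 weeks, had 559 RPKM of Serpina4, with the next EtOH liver at 429. EtOH animal 1 had 12.6 RPKM of Serpinb9 (next 8.79) and the lowest EtOH value of Serping1, 277 RPKM (next 315). Serpinb6b was at 3.18 RPKM in control animal 1 (next 1.35) and at 2.27 in EtOH animal 2 (next 1.06), on 13 and 14 reads.

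The remaining values were each taken as 1 read, the smallest whole number that fits. They are Serpina12 at 0.195 RPKM and Serpinb10 at 0.431 RPKM in control animal 4, and Serpinb5 at 0.0945 RPKM in control animal 5 and 0.0857 RPKM in EtOH animal 6.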

How the results depend on the processing

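Beside 4 members, 526 transcripts and 11 genes of the accompanying lists called, 1 member was called without normalization, with median scaling or without the trend, and 2 with the pooled test or voom. The pooled test called 322 transcripts and 6 list genes, and a minimum mean RPKM of 1 called 860 transcripts. Without normalization the median log2 fold change of the members was 0.0533. With each liver left out, 0 to 4 members, 212 to 656 transcripts and 4 to 15 list genes were called. No member was called without EtOH animal 2, 1 without control animals 2 to 5 or EtOH animals 1 or 4, and 2 without EtOH animals 3, 5 or 6. Transcripts called fell to 275 and 285 without control animals 2 and 4, and to 212, 252, 295 and 298 without EtOH animals 2 to 5. List genes called were 6, 6 and 7 without control animals 2, 4 and 5 and 4, 4, 6 and 7 without EtOH animals 2 to 5. The smaller fits have fewer samples, and the cause of the other changes was not tested. Of the values of single genes, 842 kept their direction and side of the threshold, 165 lost a call, 6 gained one and 11 moved, and none changed sign with a call. With the animal number as a replicate block, 0 members, 113 transcripts and 2 list genes were called. Same-numbered livers correlated at -0.0669 to 0.0322, 0 of 6 pairs above 0.1, and 1 control liver matched its own number best. The labels give no link between same-numbered livers beyond the number, and these correlations cannot exclude one. Depth limits members under 50 reads in all.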
